A study of Sus scrofa with 18 samples.

Results

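GPNMB, LGALS3, TREM2, SPP1, MSR1, APOE, CD9 and PLA2G7 are 8 genes that lipid-loaded macrophages of adipose tissue express, and they are described here over the growth of pig backfat. The 8 genes were selected on an earlier result of these data, the higher levels of GPNMB and LGALS3 at 120 than at 60 days, together with what is known of such macrophages. Each gene was taken as the assembled locus that carries its symbol, and where several loci did, as the one with the highest mean FPKM (fragments mapped to a locus, scaled to its length and to the library), giving 8 of 27883 loci, all of which passed the filter on low values.

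Shoulder backfat was sequenced from 18 Ningxiang pigs that the paper describes as castrated males. There was 1 library for each pig, at 6 ages spaced by 60 days from 60 to 360 days and with 3 pigs per age. Ningxiang is a Chinese pig breed that lays down much fat. All pigs were kept under standard conditions with no treatment besides castration, the 3 pigs of a stage were full sibs and the 6 stages were related through 1 parent, so age and litter cannot be told apart. The total counts ranged from 74077094 to 84236689 per library.

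The libraries differed in Y-linked genes, which goes against the description of all pigs as castrated males. EIF1AY, KDM5D and ZFY, genes of the Y chromosome, had a summed level of 128 to 278 CPM (counts relative to the library total) in 11 libraries. They summed to no more than 13.1 CPM in the other 7, which were 60 days replicates 1 and 3, 120 days replicate 2, all 3 replicates of 180 days and 300 days replicate 2. A locus of the X chromosome, RF01881, went the other way, at 21.1 to 39.3 FPKM in these 7 libraries and 0.019 to 0.067 FPKM in the 11. The sex of the pigs was not tested otherwise, and the labels were kept. At 180 days the age and the difference in Y-linked genes cannot be told apart. Some of the members' fold changes that rest on these 7 libraries are given with and without them, as are some counts of other listed genes from 60 to 360 days. Adipocyte genes were abundant at every stage, since ADIPOQ (adiponectin) averaged between 165 FPKM at 360 days and 254 FPKM at 60 days. The summed FPKM of 13 macrophage markers ranged from 41.2 to 121 over the 18 libraries.

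Macrophages of fat tissue engulf dying adipocytes and free lipid and break both down in lysosomes. In mice and humans a state of these cells that gathers around dying adipocytes is marked by the lipid receptor TREM2 and its adaptor TYROBP, by scavenger receptors, by lysosomal proteins and by secreted factors such as osteopontin. The members described here have different roles in that state. TREM2 and MSR1 are surface receptors, CD9 and GPNMB are membrane proteins of the cell surface and of vesicles, LGALS3 and SPP1 encode secreted proteins, and APOE and PLA2G7 encode proteins that act on lipoprotein lipid. Several of them are not limited to macrophages, since APOE is also made by adipocytes and hepatocytes and CD9 is found on many cell types. In bulk tissue, fewer cells of a type and less RNA per cell cannot be told apart.

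Over the 18 libraries the mean level on the FPKM scale was highest for APOE (78.5), followed by CD9 (40), GPNMB (16), PLA2G7 (8.91), SPP1 (7.77), LGALS3 (3.4), MSR1 (0.995) and TREM2 (0.49). TREM2 rested on 20 to 322 counts per library, the fewest of the 8, whereas MSR1 had at least 368 and every other member at least 495. The relative spread over the 18 libraries was widest for GPNMB, with a coefficient of variation of 79.4%, and narrowest for PLA2G7, with 27.4%. In the plot of the members by library, GPNMB, LGALS3, SPP1, TREM2 and CD9 had their highest stage mean at 120 days, MSR1 at 360 days, APOE at 180 days and PLA2G7 at 60 days.

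**Figure D1:**
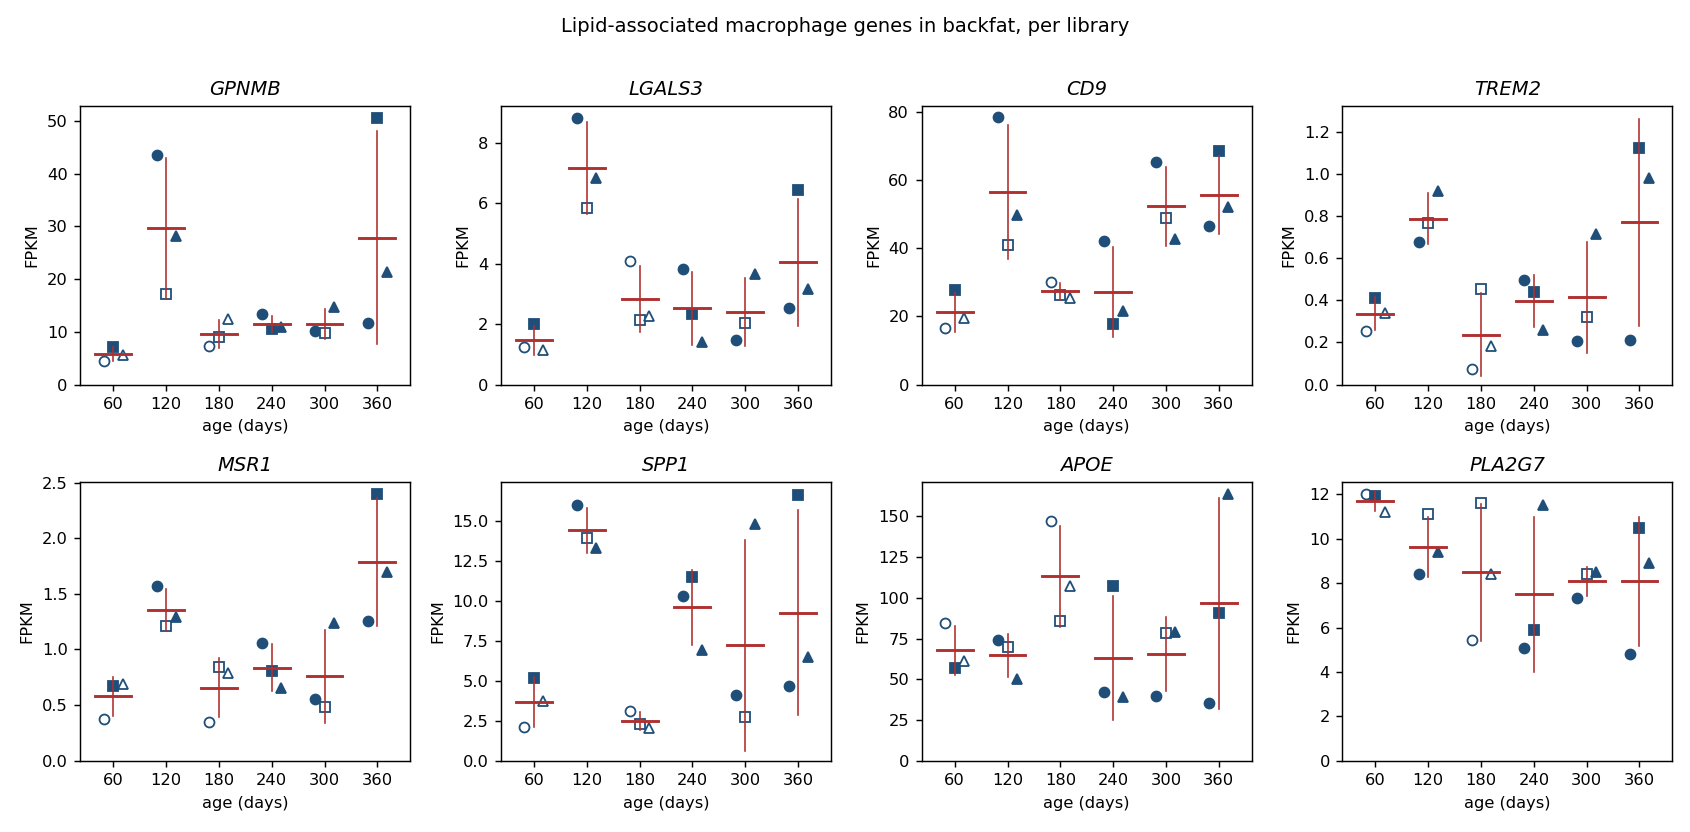
FPKM of the 8 members (vertical axes, linear, starting at 0) at each age in days (horizontal axes), with 1 point per library (circle, square and triangle for replicates 1, 2 and 3), the stage mean as a horizontal line and the SD as a vertical line. Open points are the 7 libraries low in Y-linked genes. GPNMB is low in all 3 libraries at 60 days (4.48 to 7.17) and stands apart at 120 days and in replicates 2 and 3 of 360 days.

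GPNMB encodes a membrane glycoprotein of endosomes and lysosomes that rises in phagocytes under lysosomal load. Its locus (MSTRG.22645) lies on chromosome 9 of Sscrofa11.1, from 92037509 to 92071499 on the plus strand. It stood at 4.48, 7.17 and 5.69 FPKM in replicates 1, 2 and 3 at 60 days and at 43.6, 17.2 and 28.1 FPKM at 120 days. The values were 7.27, 9.04 and 12.5 FPKM at 180 days, 13.3, 10.5 and 10.9 at 240 days and 10.1, 9.69 and 14.7 at 300 days. At 360 days the replicates were far apart, at 11.7, 50.5 and 21.4 FPKM. The 60 day libraries lay below all other 15, without overlap, while the means of 120 days (29.6 ± 13.2, SD, n = 3) and 360 days (27.9 ± 20.2) lay within each other's spread. The means of 180, 240 and 300 days, between 9.62 and 11.5 FPKM, also overlapped each other.

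LGALS3 encodes galectin-3, a lectin that macrophages secrete and that gathers on damaged lysosomes. Its locus (MSTRG.1380) lies on chromosome 1, from 184478643 to 184496434 on the plus strand. LGALS3 stood at 1.25, 2.01 and 1.14 FPKM at 60 days and at 8.82, 5.85 and 6.83 FPKM at 120 days. It then stood at 4.10, 2.13 and 2.27 FPKM at 180 days, at 3.82, 2.33 and 1.41 at 240 days and at 1.48, 2.05 and 3.66 at 300 days. At 360 days it stood at 2.54, 6.43 and 3.15 FPKM. Every 120 day library was above every library of 60, 180, 240 and 300 days, and replicate 2 of 360 days alone reached into the 120 day range. In the order of the stage means, from 120 days (7.16) through 360, 180, 240 and 300 to 60 days (1.47), all neighbours overlapped.

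SPP1 encodes osteopontin, a secreted protein that binds integrins on macrophages and that bone cells also make. Its locus (MSTRG.21696) lies on chromosome 8, from 131077026 to 131085759 on the minus strand. SPP1 stood at 2.09, 5.19 and 3.76 FPKM at 60 days, at 16, 13.9 and 13.3 at 120 days and at 3.12, 2.28 and 2.02 at 180 days. It stood at 10.3, 11.5 and 6.94 FPKM at 240 days, at 4.11, 2.74 and 14.8 at 300 days and at 4.69, 16.6 and 6.48 at 360 days. The 120 day libraries lay above every library of 60, 180 and 240 days, and the 240 day libraries lay above every library of 60 and 180 days. At 300 and at 360 days a single pig carried the high value. Its stage mean was lowest at 180 days (2.47) and 9.57 FPKM at 240 days, a step that no other member showed without overlap.

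TREM2 encodes the lipid-sensing receptor after which this macrophage state is often named. Its locus (MSTRG.19848) lies on chromosome 7, from 36464034 to 36471393 on the minus strand. TREM2 stood at 0.254, 0.411 and 0.341 FPKM at 60 days, at 0.678, 0.765 and 0.918 at 120 days and at 0.0726, 0.453 and 0.185 at 180 days. It stood at 0.496, 0.437 and 0.259 FPKM at 240 days, at 0.209, 0.322 and 0.712 at 300 days and at 0.21, 1.12 and 0.981 at 360 days. The 120 day libraries were above all those of 60, 180 and 240 days. At 360 days replicates 2 and 3 were the highest of all 18 libraries, whereas replicate 1 was among the 4 lowest, and all neighbours in the order of stage means overlapped. In 180 days replicate 1, the lowest library of TREM2 and of MSR1, 4 skeletal muscle markers summed to 223 FPKM, against 2.8 and 0.945 FPKM in replicates 2 and 3, and their part in these levels was not tested.

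MSR1 encodes a scavenger receptor through which macrophages take up modified lipoproteins. Its locus (MSTRG.9534) lies on chromosome 17, from 3857171 to 3939614 on the minus strand. MSR1 stood at 0.372, 0.673 and 0.69 FPKM at 60 days, at 1.57, 1.21 and 1.29 at 120 days and at 0.349, 0.839 and 0.785 at 180 days. It stood at 1.06, 0.804 and 0.65 FPKM at 240 days, at 0.551, 0.483 and 1.24 at 300 days and at 1.26, 2.4 and 1.7 at 360 days. Its 360 day libraries were above all libraries of 60, 180, 240 and 300 days and overlapped those of 120 days. The 120 day mean (1.35 ± 0.185) was separated from the next one, that of 240 days (0.837 ± 0.205), with no overlap between libraries.

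CD9 encodes a tetraspanin that organises membrane partners on macrophages and on many other cells. Its locus (MSTRG.16616) lies on chromosome 5, from 64420179 to 64459820 on the minus strand. CD9 stood at 16.6, 27.6 and 19.4 FPKM at 60 days, at 78.5, 41 and 49.7 at 120 days and at 30.2, 26.4 and 25.5 at 180 days. It stood at 42.1, 17.7 and 21.6 FPKM at 240 days, at 65.2, 49 and 42.6 at 300 days and at 46.4, 68.4 and 52 at 360 days. Unlike GPNMB, LGALS3, MSR1 and SPP1, which had a mean at 300 days at or below that of 240 days, CD9 was higher at 300 days, in libraries that did not overlap those of 180 or 240 days. The means of 120 (56.4), 360 (55.6) and 300 days (52.3) overlapped each other, and so did those of 180 (27.4), 240 (27.1) and 60 days (21.2).

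APOE and PLA2G7 did not follow the other members. APOE encodes the apolipoprotein that carries lipid out of macrophages and between tissues, and its locus (MSTRG.17741) lies on chromosome 6, from 51372241 to 51376732 on the plus strand, overlapped by 1 locus on the other strand. APOE stood at 84.8, 57.2 and 61.4 FPKM at 60 days, at 74.4, 69.6 and 49.9 at 120 days and at 147, 85.8 and 107 at 180 days. It stood at 42.4, 107 and 39.4 FPKM at 240 days, at 39.5, 78.5 and 78.8 at 300 days and at 35.2, 90.8 and 164 at 360 days. The 180 day libraries were above those of 60 and 120 days, but neighbours in the order of stage means overlapped throughout, and at 360 days the lowest and the highest of all 18 libraries came from the same stage. In 240 days replicate 2, the high one of its stage, 4 liver markers (ALB, APOA1, TTR and AHSG) summed to 280 FPKM, against 5.32 and 8.25 FPKM in replicates 1 and 3. In 300 days replicate 2 they summed to 232 FPKM, against 7.66 and 5.77 FPKM. The part of these transcripts in the APOE level was not tested.

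PLA2G7 encodes the lipoprotein-associated phospholipase that removes oxidised lipid and platelet-activating factor, and its locus (MSTRG.19939) lies on chromosome 7, from 41485932 to 41531581 on the minus strand. PLA2G7 stood at 12, 11.9 and 11.2 FPKM at 60 days, at 8.42, 11.1 and 9.4 at 120 days and at 5.44, 11.6 and 8.43 at 180 days. It stood at 5.08, 5.89 and 11.5 FPKM at 240 days, at 7.33, 8.39 and 8.51 at 300 days and at 4.83, 10.5 and 8.89 at 360 days. It was highest at 60 days, the stage at which GPNMB, LGALS3, MSR1 and CD9 were lowest. From 120 days on the stages overlapped, with means between 7.49 and 9.65 FPKM.

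Between 60 and 120 days GPNMB was 5.43-fold higher (log2 fold change 2.44, standard error 0.43) and LGALS3 5.18-fold higher (2.37 ± 0.44). SPP1 differed by 2.05 ± 0.55, CD9 by 1.49 ± 0.31, TREM2 by 1.31 ± 0.63 and MSR1 by 1.31 ± 0.38, while APOE (0.02 ± 0.49) and PLA2G7 (-0.19 ± 0.31) stood close to 0. The median log2 fold change of the 8 members was 1.40, beside -0.01 over the 19470 loci tested. By edgeR 2 of the 8, GPNMB and LGALS3, were called, that is, reached an adjusted p of 0.05 or less with a log2 fold change of 1 or more in either direction, and 0.231% of all loci tested were called. This is the contrast that the choice of the genes used, so the values are a description and nothing is read from the count. Without the libraries low in Y-linked genes, which left 1 pig at 60 days and 2 at 120 days, the log2 fold change was 2.41 for GPNMB and 2.06 for LGALS3, and 0 members were called by edgeR, with 4 at an unadjusted p under 0.05. Both calls were also lost with a replicate block, with no filter on low values, by limma on log2(FPKM + 0.1) and on leaving out any single library of 60 or 120 days (0 members each). Other lists differed at this step too. All 3 neutrophil markers tested (median 1.39) and 6 of 7 fibroblast and progenitor markers (0.68, 1 called) were higher at 120 days. Of 14 lipid handling and lysosome genes 9 were higher and 5 lower (0.50), and of 4 endothelial markers 1 was higher and 3 lower (-0.46). At an unadjusted p under 0.05 by edgeR there were 1, 3, 10 and 3 genes of these lists, beside 2588 of the 19470 loci. All 4 skeletal muscle markers were higher (3.53), with 0 at that p. Their sum was 120 FPKM in 120 days replicate 2, 1.53 and 8.47 in replicates 1 and 3, and 1.1 to 9.24 at 60 days. The part of these lists in the members' levels was not tested.

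**Figure D2:**
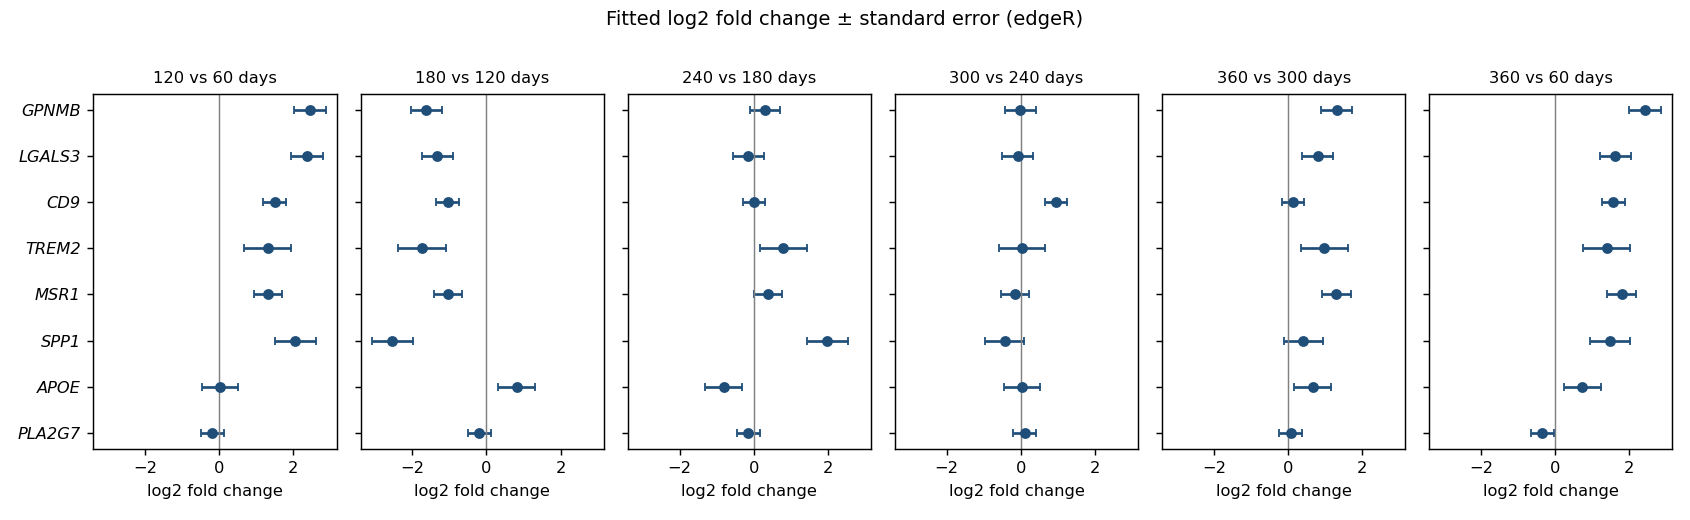
Fitted log2 fold change of each member (horizontal axis, later stage over earlier stage) in the 5 adjacent comparisons and from 60 to 360 days, with bars for the standard error (edgeR on counts, 3 pigs per stage). Points right of 0 are higher at the later age: 7 of 8 at 120 against 60 days, 1 of 8 at 180 against 120 days, and all 8 at 360 against 300 days, where PLA2G7 (0.07) is below 0 by limma.

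From 120 to 180 days 7 of the 8 members were lower and APOE was higher (0.82 ± 0.50), with PLA2G7 (-0.19 ± 0.31) at 0.04 without 180 days replicate 1. The median of the 8 was -1.19, beside -0.01 over all loci. The log2 fold change was -2.54 ± 0.56 for SPP1, -1.74 ± 0.64 for TREM2, -1.62 ± 0.42 for GPNMB, -1.33 ± 0.42 for LGALS3, -1.04 ± 0.38 for MSR1 and -1.04 ± 0.31 for CD9. None passed the threshold by edgeR (0 of 8, beside 0% of all loci), and the lowest adjusted p among them was 0.107 for SPP1. At an unadjusted p under 0.05 there were 6 members, and 2407 of the 19470 loci. DESeq2 called 4 members, namely GPNMB, LGALS3, SPP1 and CD9, and 254 loci. The 120 day libraries are shared with the comparison above, so a high value there raises one difference and lowers the other. All 180 day libraries are low in Y-linked genes, and with their summed level added to the model the value was -2.10 for SPP1 and -1.07 for GPNMB, and 2 members had an unadjusted p under 0.05.

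From 180 to 240 days SPP1 was higher by 1.99 ± 0.55 (adjusted p = 0.277 by edgeR), with every 240 day library above every 180 day library. The other members differed by between -0.80 (APOE) and 0.80 (TREM2), each within about 2 standard errors. By edgeR 0 members were called, beside 0% of all loci, with 1 member (SPP1) and 1816 loci at an unadjusted p under 0.05. DESeq2 called SPP1 and 109 loci. All 180 day libraries and 0 of the 240 day libraries are low in Y-linked genes, so age and that difference cannot be told apart. With a Y-linked covariate SPP1 was at 1.29 (unadjusted p = 0.0871 by edgeR), and 0 members had an unadjusted p under 0.05.

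From 240 to 300 days CD9 was higher by 0.95 ± 0.30 (adjusted p = 1 by edgeR), and the remaining members differed by between -0.43 (SPP1) and 0.11 (PLA2G7). By edgeR 0 members were called, beside 0% of all loci, with 1 member (CD9) and 735 loci at an unadjusted p under 0.05, and DESeq2 called 0 members and 19 loci. The median of the 8 members, 0.01, was the closest to 0 of the 5 adjacent comparisons.

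From 300 to 360 days all 8 members were higher, with a median log2 fold change of 0.74 beside 0.01 over all loci, though PLA2G7 (0.07 ± 0.31) turned to -0.07 by limma on log2(FPKM + 0.1). Without 360 days replicate 2 SPP1 was at -0.24 and PLA2G7 at -0.11, and without replicate 3 APOE was at -0.07 and PLA2G7 at -0.08. GPNMB differed by 1.32 ± 0.42 (adjusted p = 0.433 by edgeR) and MSR1 by 1.31 ± 0.38 (adjusted p = 0.405), followed by TREM2 (0.98 ± 0.63), LGALS3 (0.80 ± 0.42) and APOE (0.67 ± 0.50). By edgeR 0 members were called, beside 0% of all loci, with 2 members (GPNMB and MSR1) and 1768 loci at an unadjusted p under 0.05. DESeq2 called 0 members and 66 loci. Without the libraries low in Y-linked genes the value was 1.22 for GPNMB and 1.08 for MSR1.

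Between the first and the last stage GPNMB rose 5.4-fold (log2 fold change 2.43 ± 0.43, adjusted p = 0.00371 by edgeR), MSR1 3.49-fold (1.80 ± 0.39, adjusted p = 0.00994), LGALS3 3.09-fold (1.63 ± 0.43, adjusted p = 0.0246) and CD9 2.97-fold (1.57 ± 0.31, adjusted p = 0.00648). In each of the 4 genes every 360 day library was above every 60 day library. The calls rest on the same libraries, and the share of all loci that separated in this way was not counted. SPP1 differed by 1.49 ± 0.54 (adjusted p = 0.0851), TREM2 by 1.39 ± 0.63 (adjusted p = 0.163), APOE by 0.74 ± 0.50 and PLA2G7 by -0.34 ± 0.31. The called members were 4 of 8, beside 5.11% of all loci tested. The 60 day libraries are those of the contrast that chose the genes, so for GPNMB and LGALS3 in particular the low starting level is not independent evidence. Leaving out 60 days replicate 1 (adjusted p = 0.0869 by edgeR), 60 days replicate 3 (0.088), 360 days replicate 2 (0.0857) or 360 days replicate 3 (0.054) ended the call of LGALS3, and SPP1 was called without 300 days replicate 3 (0.0313) or 360 days replicate 1 (0.0477). Without the 7 libraries low in Y-linked genes, which left 1 pig at 60 days, 0 members were called by edgeR and 3 had an unadjusted p under 0.05, with values of 2.14 for GPNMB, 1.61 for MSR1, 1.21 for CD9 and 1.19 for LGALS3.

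Over the 6 stages, 5 members (GPNMB, CD9, LGALS3, MSR1 and SPP1) were called by edgeR, beside 4.32% of all loci. That test includes the 60 and 120 day libraries on which the choice rested, so nothing is read from the count. The range of fitted stage means was 2.54 on the log2 scale for SPP1 and 2.44 for GPNMB, and 0.83 for APOE and 0.52 for PLA2G7.

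Within stages, the level of Y-linked genes and the members can be set side by side at 60, 120 and 300 days. GPNMB was lower in the libraries low in Y-linked genes at all of these ages. At 60 days the 2 such libraries were below the other in 5 members (GPNMB, LGALS3, TREM2, SPP1 and CD9) and above it in APOE. At 120 days the 1 such library was the lowest in 4 members (GPNMB, LGALS3, MSR1 and CD9). It was the highest in PLA2G7, at 11.1 FPKM against 8.42 to 9.4. At 300 days the 1 such library was the lowest in 3 members (GPNMB, SPP1 and MSR1). The remaining members overlapped at each age. The share of all loci with such an order was not counted, so nothing is read from these counts. The part of the difference in Y-linked genes in the members' levels was not tested, and the orders rest on 1 or 2 libraries per stage.

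At 360 days replicate 2 was among the 3 highest of the 18 libraries in 6 of the 8 members, and replicate 3 in 3. Replicate 1 was among the 3 highest in none and among the 3 lowest in APOE and PLA2G7, although its macrophage markers summed to 111 FPKM, between those of replicate 2 (91.1) and replicate 3 (121). MRC1, the mannose receptor of resident macrophages, stood at 16.7 FPKM in replicate 1, its highest level in the series, and at 8.02 and 9.88 FPKM in replicates 2 and 3. At 120 days replicate 1 was among the 3 highest libraries in 5 members, and at 60 days replicate 1 was among the 3 lowest in 5. In 360 days replicate 3, which held the highest APOE, the share of the 10 most abundant loci was 19%, and in every other library it lay between 9.37% and 14.3%. By the paper's sequencing statistics that library also had the highest GC content and the lowest share of mapped reads of the 18. The part of library quality in its levels was not tested.

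The members correlated unevenly with each other. Over the 18 libraries the 28 pairs had a median Pearson r of 0.46 on log2(FPKM + 0.1), which describes libraries that share stages, litters and depth. The correlation matrix of the members separates GPNMB, MSR1, LGALS3, SPP1, TREM2 and CD9 from APOE and PLA2G7. GPNMB and MSR1 (r = 0.86), GPNMB and LGALS3 (0.84) and TREM2 and MSR1 (0.82) were closest. With the stage means removed TREM2 and MSR1 stayed at 0.79 and LGALS3 and SPP1 at 0.77, whereas GPNMB and LGALS3 were at 0.60 and CD9 was at 0.08 with TREM2, 0.22 with SPP1 and 0.24 with MSR1. PLA2G7 and TREM2 (0.34 over the 18 libraries) were at 0.54 within stages. APOE (median r of 0.06 with the other members) and PLA2G7 (-0.02) followed none of them closely over the 18 libraries, and the closest partner of APOE was LGALS3, with r = 0.18.

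**Figure D3:**
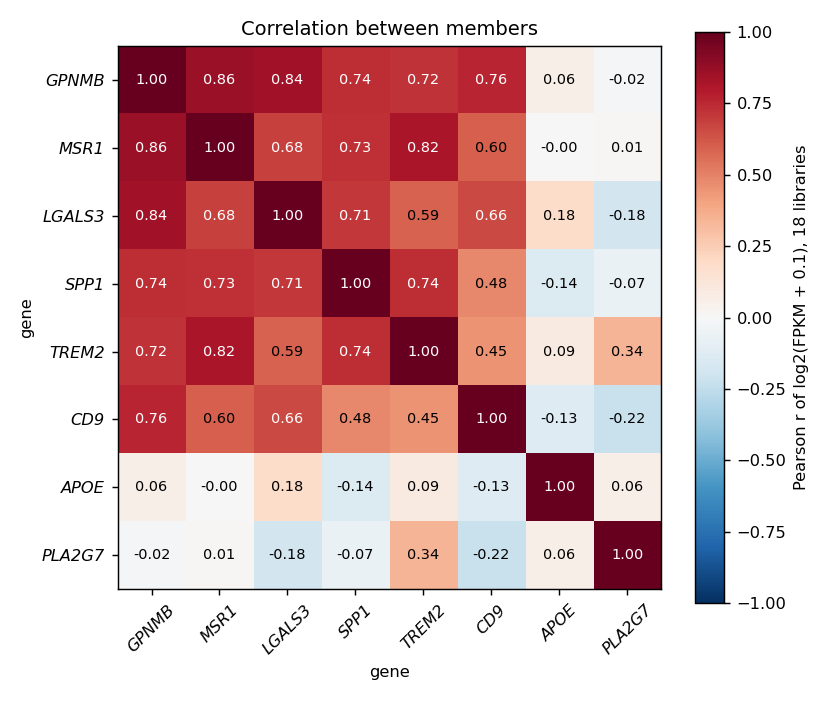
Pearson r between the members' log2(FPKM + 0.1) values over 18 libraries, with genes on both axes and the colour scale running from -1 to 1. GPNMB and MSR1 reach 0.86, whereas APOE and PLA2G7 have r near 0 with most members.

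The genes closest to the members over the 14530 other loci with a symbol were, for GPNMB, CTSH (r = 0.95), a lysosomal protease, SLC11A1 (0.92), a metal transporter of phagosomes, and GP91-PHOX (0.91), the catalytic subunit of the phagocyte oxidase. MSR1 was closest to SLC11A1 (0.93), the surface protease ADAM8 (0.92) and UBASH3B (0.90). SPP1 was closest to lysozyme (LYZ, 0.86), GP91-PHOX (0.85) and S100A2 (0.85), and LGALS3 to ANXA11 (0.93), to a locus that carries both LPCAT2 and MMP2 (0.90), and to the chemokine receptor CCR1 (0.90). TREM2 was closest to RAB7B (0.86), a small GTPase of late endosomes, to COTL1 (0.85) and to the integrin ITGAM (0.83). CD9 stood nearest to SAMD4A (0.85), AEBP1 (0.84) and GAS6 (0.84). APOE had as its nearest genes AUP1 (0.88), FXYD1 (0.76) and LTO1 (0.74), and PLA2G7 had PPP2R1B (0.90), ABHD5 (0.90), an activator of triglyceride lipolysis in fat cells, and SEC23B (0.87). PLA2G7 was also the only member with r above 0.5 with the summed adipocyte markers (0.63), while MSR1 (0.67), GPNMB (0.65) and CD9 (0.61) had such values with the summed macrophage markers. LGALS3, TREM2 and SPP1 were at 0.43, 0.46 and 0.35 with the macrophage sum, and APOE and PLA2G7 at -0.04 and -0.23. With the summed Y-linked genes the value was 0.63 for SPP1, 0.50 for GPNMB, 0.49 for MSR1 and 0.48 for CD9. It was 0.39 for TREM2, 0.27 for LGALS3, -0.27 for PLA2G7 and -0.40 for APOE. Of the osteoclast and bone markers only DCSTAMP (mean 0.203 FPKM), OCSTAMP (0.065) and IBSP (0.00123) had a locus. Their sum, a low level of 0.0216 to 0.895 FPKM, was thus mostly DCSTAMP, a gene of macrophage as well as osteoclast fusion. With that sum the value was 0.86 for LGALS3, 0.79 for GPNMB, 0.76 for SPP1, 0.61 for TREM2, 0.58 for CD9 and 0.57 for MSR1. With the summed neutrophil markers it was 0.64 for LGALS3 and 0.54 for GPNMB. All these values describe the same 18 libraries.

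Set against the macrophage markers, GPNMB, LGALS3, SPP1, CD9 and TREM2 still differed between 60 and 120 days. GPNMB was 9.01 to 11.3% of the summed marker FPKM at 60 days and 26.6 to 44.7% at 120 days. LGALS3 was 2.61 ± 0.393% (SD, n = 3) and 8.42 ± 1.08%, and SPP1 6.36 ± 1.22% and 17.3 ± 3.84%, with no overlap between the stages. CD9 was 34.7 to 40.4% and 52.3 to 80.6%, and TREM2 0.516 to 0.678% and 0.696 to 1.18%, also without overlap. For MSR1 the stages overlapped (0.846 to 1.37% and 1.35 to 1.88%). In 60 days replicate 2, the 1 library of that stage not low in Y-linked genes, the ratio was 9.01% for GPNMB, 2.52% for LGALS3 and 6.52% for SPP1. These ratios belong to the contrast that chose the genes and are a description. At 360 days the ratio of GPNMB ran from 10.6% in replicate 1 to 55.5% in replicate 2, and the ratio of TREM2 from 0.19% to 1.23%, so at 360 days these ratios overlapped those of 60 days. PLA2G7 went the other way, from 22.1 ± 7.05% at 60 days to 7.76 ± 3.62% at 360 days, where its libraries (at most 11.6%) no longer overlapped those of 60 days (at least 15%).

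**Figure D4:**
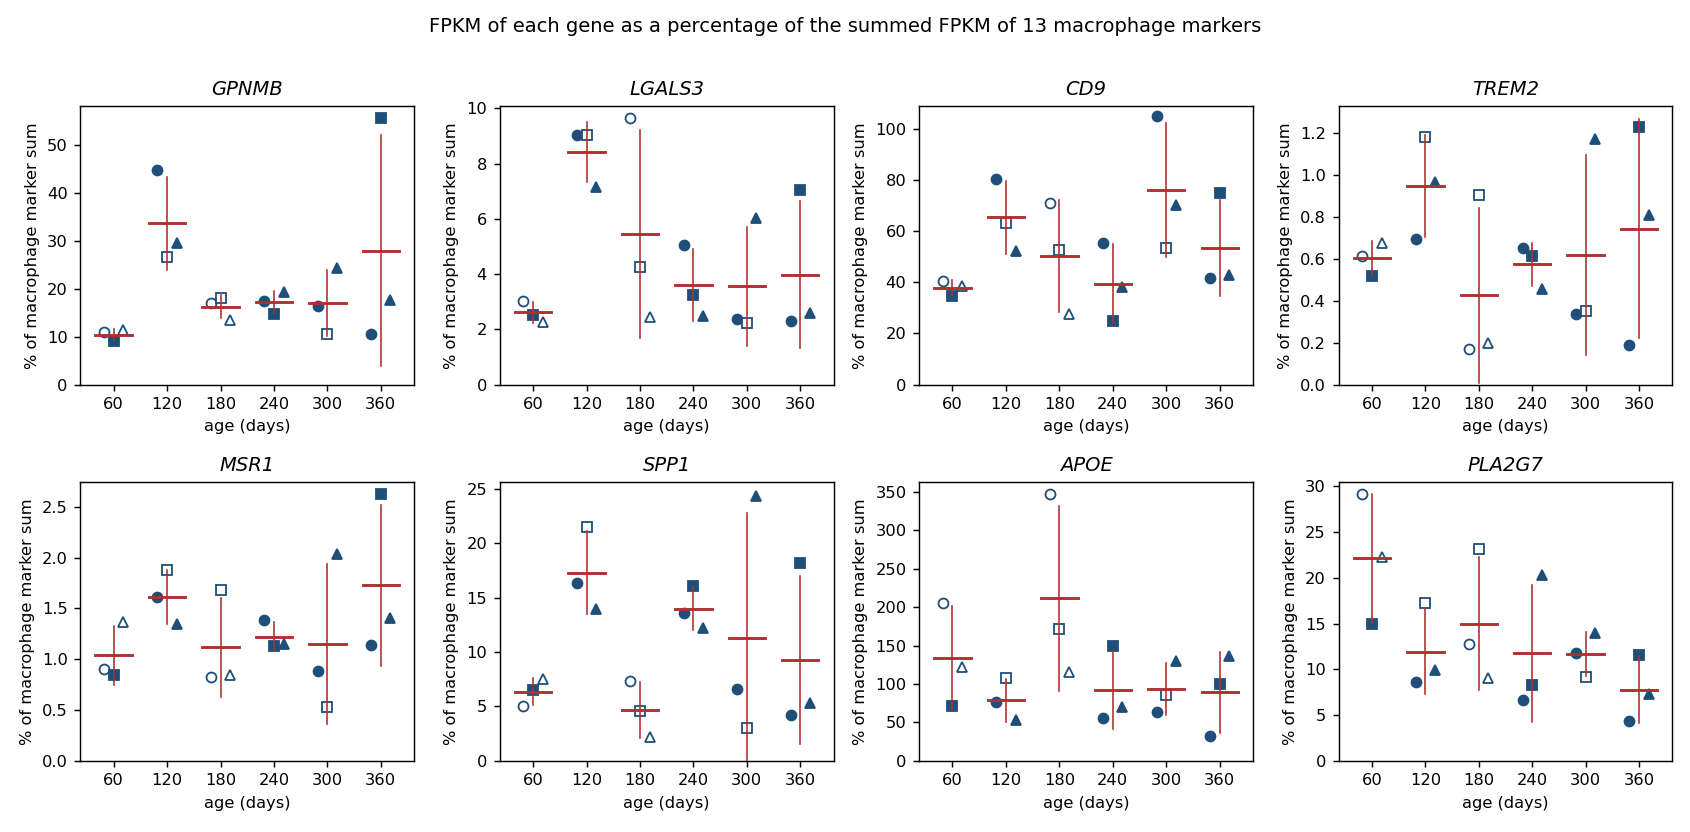
FPKM of each member as a percentage of the summed FPKM of 13 macrophage markers in the same library (vertical axes, linear, starting at 0) at each age in days, with the stage mean and SD as lines (SD bars that reach below 0 are cut there). Open points are libraries low in Y-linked genes. The GPNMB ratio is 9.01 to 11.3% at 60 days and 26.6 to 44.7% at 120 days, and at 360 days replicate 2 alone reaches 55.5%.

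TYROBP, the adaptor through which TREM2 signals, rose between 60 and 360 days with the called members. It stood at 2.11, 2.63 and 2.55 FPKM at 60 days, at 8.52, 5.38 and 6.66 at 120 days and at 6.22, 7.86 and 12.8 at 360 days. Both later stages lay above 60 days with no overlap, and the log2 fold change from 60 to 360 days was 2.09 ± 0.40 (adjusted p = 0.00591 by edgeR). Of the 7 genes of TREM2 signalling tested, all 7 were higher at 360 than at 60 days and TYROBP was the 1 called, beside 5.11% of all loci. The median of this group was 0.55. SYK, the kinase that TYROBP recruits, differed by 0.77 ± 0.33 and the lysosomal regulator TFEB by 0.61 ± 0.23, neither past the threshold. With a Y-linked covariate TYROBP was at 1.98 (adjusted p = 0.0301 by edgeR), and without the libraries low in Y-linked genes at 2.00 (adjusted p = 0.183), no longer called.

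Of 14 genes of lipid handling and lysosomes in lipid-loaded macrophages tested, 11 were higher at 360 than at 60 days, with a median of 0.49, and 5 were called, beside 5.11% of all loci called and 48.8% higher. The called genes encode lysosomal proteases, CTSL (2.07 ± 0.40, adjusted p = 0.00628 by edgeR), CTSD (1.78 ± 0.23, adjusted p = 0.00056), CTSZ (1.68 ± 0.26, adjusted p = 0.00157), LGMN (1.24 ± 0.19, adjusted p = 0.00135) and CTSB (1.03 ± 0.17, adjusted p = 0.00227). CTSD stood at 22.8, 20.4 and 19.7 FPKM at 60 days and at 36.3, 71.8 and 79.6 FPKM at 360 days, again with replicate 1 the lowest of its stage. CTSZ was also lowest in replicate 1 within 360 days, at 14.8, 39.2 and 34.7 FPKM. LPL, which frees fatty acids from lipoproteins (0.16 ± 0.19), the fatty acid carriers FABP4 (-0.09 ± 0.25) and FABP5 (0.00 ± 0.21) and the lipid droplet protein PLIN2 (0.03 ± 0.36) did not pass the threshold, and adipocytes also express LPL, FABP4 and PLIN2. The lysosomal proteins NPC2 (0.89 ± 0.18), ACP5 (0.51 ± 0.51) and CD63 (0.34 ± 0.13) were not called either. Bulk tissue does not show which cells carried the protease transcripts. From 120 to 180 days 8 of the 14 genes were higher and 6 lower (median 0.09), while the members' median was -1.19. From 60 to 360 days all 5 proteases were called with a Y-linked covariate. Without the libraries low in Y-linked genes 0 of the 14 genes were called by edgeR and 6 had an unadjusted p under 0.05, with CTSD at 1.84 and CTSL at 2.06.

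**Figure D5:**
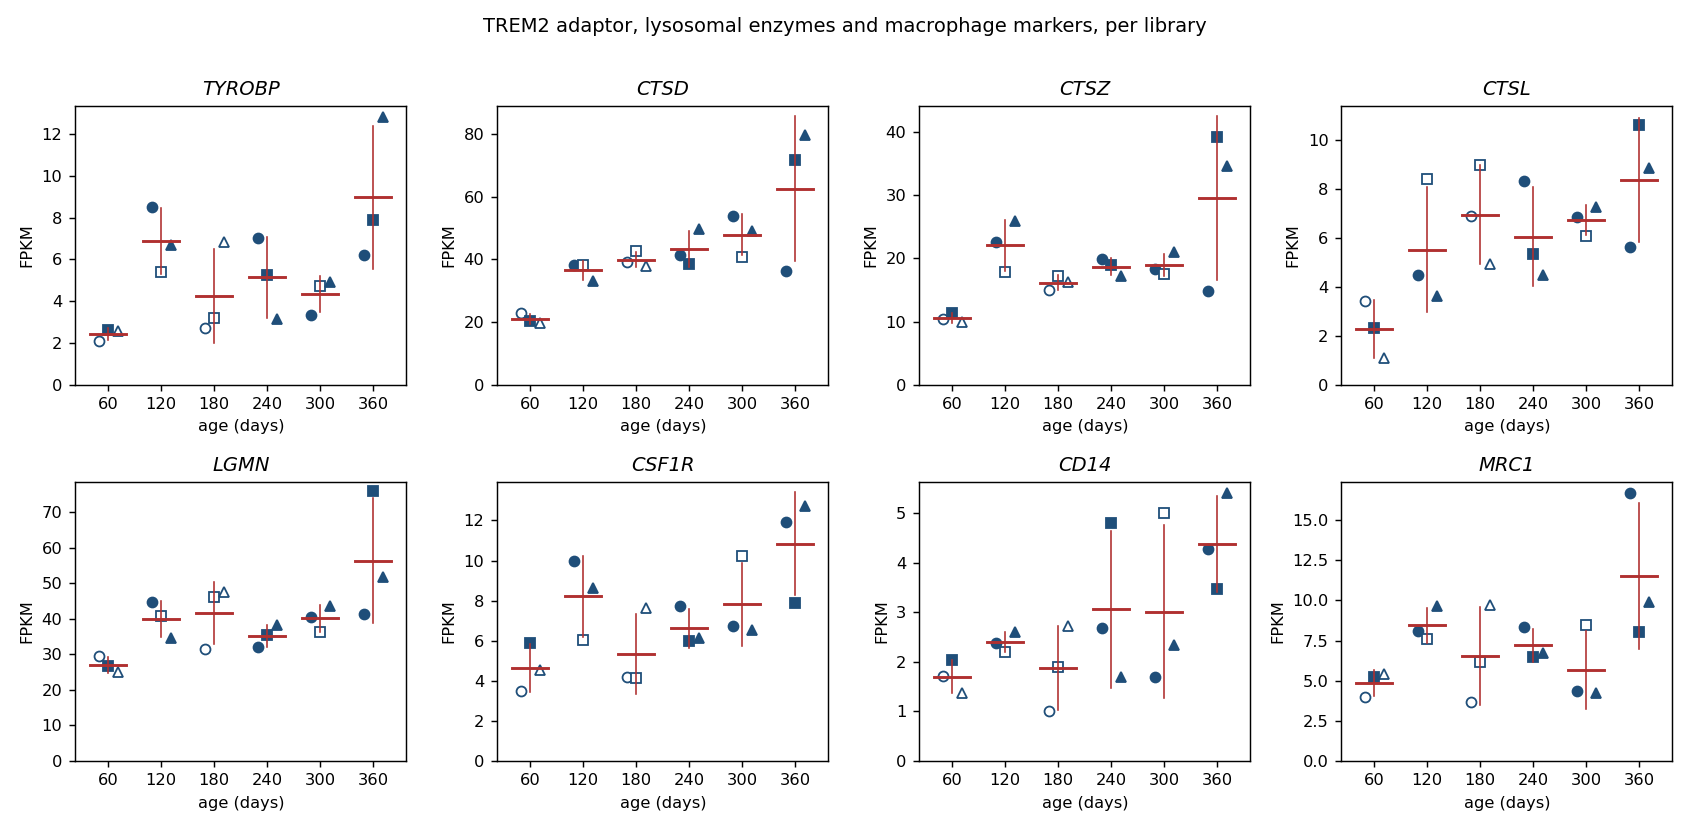
FPKM (vertical axes, linear, starting at 0) of TYROBP, 4 lysosomal enzymes (CTSD, CTSZ, CTSL, LGMN) and 3 macrophage markers (CSF1R, CD14, MRC1) at each age in days, with 1 point per library, the stage mean and the SD. At 360 days replicate 1 (circle) is the lowest for CTSD (36.3) and CTSZ (14.8) but the highest for MRC1 (16.7).

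General macrophage markers also moved between these stages. All 13 tested were higher at 360 than at 60 days, with a median of 1.06, and 4 were called, beside 5.11% of all loci called and 48.8% higher, among them CD14 (1.57 ± 0.45), CSF1R (1.42 ± 0.30) and MRC1 (1.42 ± 0.35). From 60 to 120 days all 13 were higher (median 0.75), from 120 to 180 days 11 were lower (median -0.60) and from 300 to 360 days all 13 were higher (median 0.65). By edgeR 0 were called at these steps. An unadjusted p under 0.05 was reached by 3, 0 and 4 markers, beside 2588, 2407 and 1768 of the 19470 loci tested. The members' medians at the same steps were 1.40, -1.19 and 0.74. No test was made of the difference between the lists. From 60 to 360 days 2 of the 13 were called by edgeR with a Y-linked covariate and 1 without the libraries low in Y-linked genes, with 6 at an unadjusted p under 0.05 in each.

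Other gene lists also differed between 60 and 360 days, a comparison in which 5.11% of all loci were called. The 5 immediate early genes tested were all called higher at 360 than at 60 days (median 1.83), as were both mast cell markers tested (median 1.26), 1 of 3 neutrophil markers and 1 of 4 adipocyte markers, leptin (LEP, 4.30 ± 0.61). Of 4 endothelial markers 1 was called higher and 1 lower, of 5 smooth muscle and pericyte markers 1 was called higher, and of 7 fibroblast and progenitor markers 1 was called lower. By edgeR 0 were called among 4 T and NK cell, 2 platelet, 4 skeletal muscle, 3 liver and 3 proliferation genes. Of these, 2, 1, 0, 0 and 1 had an unadjusted p under 0.05, beside 5513 of the 19470 loci tested. No B cell and no osteoclast and bone marker was tested. The locus of CD79A carries another symbol, some osteoclast and bone markers had no locus, and the others were too low. Without the libraries low in Y-linked genes 2 of the immediate early genes and LEP were called by edgeR, and 0 of the mast cell and neutrophil markers, of which 2 and 1 had an unadjusted p under 0.05. Of the T and NK cell markers 1 was then called, and 2 with a Y-linked covariate. The part of these differences in the members' levels was not tested.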

How the data were processed

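RNA was measured in 18 backfat libraries, 3 per stage. The authors depleted ribosomal RNA, used Cutadapt for trimming, Hisat2 for mapping to Sscrofa11.1 (Ensembl release 96) and StringTie for assembly. The deposited FPKM values come from StringTie. The deposited counts are raw whole numbers for each locus, and the counting tool and its use of strand are not given in the sources used here. All 18 libraries were used, with 0 sample columns left out.

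Counts were scaled by TMM and fitted over 6 stage groups in edgeR (version 4.0.16, R 4.3.3) with its quasi-likelihood test, over the 19470 of 27883 loci that reached 0.5 FPKM in 3 or more libraries, with Benjamini-Hochberg adjustment over all of them. Standard errors were obtained from the log2 fold change and the square root of F, as their quotient, and tests are 2-sided. The common biological coefficient of variation was 0.34 with 12 residual degrees of freedom. Pigs of 1 age were full sibs, so p-values measure the spread between pigs of a litter. On simulated counts for 120 against 60 days (19470 loci) the test found 46 of 100 loci changed by 1.5 on the log2 scale and 74 of 100 changed by 2, with 2 false calls. Total counts of at least 74077094 per library make depth a lesser limit on precision than the spread between pigs. TREM2 had the fewest counts of the members (20 to 322 per library), and the part of depth in its spread was not tested. The part of library quality, as in 360 days replicate 3, was not tested. Levels, ratios and correlations were computed on FPKM with pandas 2.3.3 and numpy 2.4.6 in Python 3.11.15.

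The members and the gene lists were chosen with earlier results of these data known. Outside the members, the genes named are those of the lists that were called, up to 4 of each list with the highest mean, and the 3 loci closest to each member. SYK, TFEB, NPC2, ACP5, PLIN2, RF01881 and the 3 genes of the other observations were named after their values were seen. Listed genes whose locus carries another symbol (such as CD68 and LIPA) were left out, decided after the table was seen. Alternatives were no filter, 1 FPKM or more in any library, the median-of-ratios scaling, DESeq2 (version 1.42.0), limma (version 3.58.1) on log2(FPKM + 0.1), + 1 or + 0.01, a replicate block, only the compared stages, a covariate for the summed Y-linked level, and fits without the libraries low in Y-linked genes (a Y-linked sum under 50 CPM) or without each library in turn. With 1 library left at a stage, it was assumed to vary like the others. Sequences were not analysed here, and 1 listed gene is not reported by name. The fits of the other listed genes with a Y-linked covariate and without the low libraries were added after seeing the data.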

Additional observations from a re-analysis of the deposited data

Results flagged for a closer look

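Other loci also carry the symbols of CD9 and PLA2G7, and in all but MSTRG.19938 the counts lay above the 3 counts that a count of 0 allows in every library. For CD9 they are MSTRG.16617 (chromosome 5, 64435994 to 64459382), with at least 422 counts per library, and MSTRG.16618 (64446429 to 64450080), with at least 395, both on the plus strand, opposite to the CD9 locus described above. From 60 to 360 days they differed by 1.01 and 1.04 on the log2 scale (adjusted p = 0.062 and 0.0382 by edgeR), in the direction of CD9 itself, and since the use of strand in counting is not stated, their reads and those of CD9 cannot be told apart. For PLA2G7 they are MSTRG.19940 (chromosome 7, 41521674 to 41531800, plus strand), with at least 685 counts, and MSTRG.19936 (41463798 to 41512912, minus strand), with at least 110. From 60 to 360 days these differed by -0.26 and -0.60, neither past the threshold. A further PLA2G7 locus, MSTRG.19938 (minus strand), had 0 to 10 counts per library and was not tested. The PLA2G7 locus described above is overlapped by 2 loci on its own strand, so reads in the shared stretches cannot be told apart by strand.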

How the results depend on the processing

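The log2 fold changes of the members kept their direction wherever they were called. At 120 against 60 days, where 2 members were called, the count was 5 with DESeq2 and 0 with no filter, with limma at a pseudocount of 0.1 or 0.01, with a Y-linked covariate and without the libraries low in Y-linked genes. It lay between 0 and 3 when 1 library was left out, and leaving out any library of 60 or 120 days gave 0. At 180 against 120 days (0 members) it was 4 with DESeq2 and 1 (SPP1) with only the compared stages, and at 240 against 180 days (0 members) 1 with DESeq2. At 360 against 60 days (4 members) it was 2 with limma at a pseudocount of 1, 2 with a Y-linked covariate (GPNMB and CD9), 0 without the libraries low in Y-linked genes and 3 to 5 with 1 library left out. Over all stages (5 members) it was 2 with limma at 0.1 or 0.01, 3 with a Y-linked covariate, 0 without the libraries low in Y-linked genes and 2 to 5 with 1 library left out. The causes were not tested, apart from the smaller number of pigs in the fits without libraries.

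Over all loci the counts varied more. At 120 against 60 days (45 loci) they were 333 with DESeq2, 142 with only the compared stages, 26 and 5 with limma at 0.1 and 0.01, 4 without the libraries low in Y-linked genes, 1 with no filter or the Y-linked covariate, and 0 to 91 with 1 library left out. At 180 against 120 days (0 loci) they were 254 with DESeq2, 9 with only the compared stages, 4 with limma at 1, and 0 to 5 with 1 library left out. At 240 against 180 days (0 loci) they were 109, 17, 2, and 0 to 4 in the same order. At 300 against 240 days (0 loci) they were 19, 1 and 1, and at 360 against 300 days (0 loci) 66 with DESeq2, 1 with limma at 1, and 0 to 12 with 1 library left out. At 360 against 60 days (995 loci) they were 370 with limma at 1, 114 without the libraries low in Y-linked genes, and 503 to 1159 with 1 library left out. Over all stages (841 loci) they were 2111 with DESeq2, 425 and 534 with limma at 1 and 0.01, 459 with the Y-linked covariate, 104 without the libraries low in Y-linked genes, and 426 to 988 with 1 library left out.

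The replicate numbers only name the pigs. The mean correlation of the libraries' residuals was 0.0108 for the 45 pairs with the same number and -0.00528 for the 90 other pairs, and for 7 of 18 libraries the closest other library had the same number. With a replicate block the called members were 0 and the called loci 5 at 120 against 60 days, and 4 members stayed called at 360 against 60 days.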

Other observations

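Genes of macrophage fusion and matrix breakdown were too low to be tested, and their counts are given as values. DCSTAMP, a receptor needed for the fusion of macrophages and osteoclasts, had 27, 35 and 9 counts at 60 days and 331, 173 and 235 at 120 days, and its highest count was 373, in 360 days replicate 2, against 44 and 74 in replicates 1 and 3. ATP6V0D2, a subunit of the lysosomal proton pump that macrophages and osteoclasts use, had 0 counts in all 3 libraries at 60 days, 61, 18 and 63 counts at 120 days, and 0, 32 and 0 counts at 360 days. MMP12, the macrophage elastase, had 0, 0 and 3 counts at 60 days and 39, 54 and 7 at 120 days. In 360 days replicate 2, where GPNMB, TREM2 and DCSTAMP were high, MMP12 had 0 counts.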
